A study of Mus musculus with 10 samples.

Results

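The vascular endothelial growth factor (VEGF) genes were followed in mouse plantaris, a muscle of the calf, as 10 genes of 22180 measured with 1 gene symbol. They were the ligands Vegfa, Vegfb, Pgf, Vegfc and Vegfd, the receptors Flt1, Kdr and Flt4, and the co-receptors Nrp1 and Nrp2, chosen by symbol in the array annotation. All 10 were found, each with 1 probe set. Muscles of male C57BL/6 mice were overloaded by synergist ablation, an operation that takes away muscles working beside the plantaris, and transcripts were read on Affymetrix Mouse Gene 2.1 ST arrays. The 5 groups were 3 d of overload with a PDGF inhibitor, which blocks signalling by platelet-derived growth factor, 3 d of overload without it, 10 d of overload with the inhibitor, 10 d of overload without it, and no overload without the inhibitor. Each group had 2 arrays, and each array carried pooled RNA of 4 muscles. Neither the name nor the dose of the inhibitor was known here, and no group had the inhibitor without overload. Separate mice for the pools of 1 group are not stated in the labels, and p-values measure pool-to-pool spread only, which may be technical.

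VEGFs are secreted dimers that act on blood and lymphatic vessels. Vegfa signals through the tyrosine kinase receptor Kdr of blood endothelium, while Flt1 binds Vegfa, Vegfb and Pgf and can hold Vegfa away from Kdr. Vegfc and Vegfd act mainly on Flt4, the receptor of lymphatic endothelium, and the neuropilins Nrp1 and Nrp2 bind VEGFs and class 3 semaphorins beside the signalling receptors. In skeletal muscle, fibres are a main source of Vegfa and Vegfb, and Vegfa is needed to keep the capillary bed.

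Array medians ranged over 2.40 to 2.45 log2 units (all probe sets), and r across genes between the pools of each group was 0.989 to 0.992. The 8 mature fibre markers averaged 11.4 to 11.9 log2 units in every pool, so the muscle label held. Pool 1 of 3 d overload stood apart in Elane (5.21 log2 units) and Mpo (5.02), enzymes of granulocyte precursors, which reached at most 1.75 in the other 9 pools. Calls of the VEGF genes and counts of the gene lists at 3 d of overload are therefore also given without that pool, where 9.68% of all genes passed.

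The promoters of the 5 members that passed the test in at least 1 comparison with no overload are shown first, because these members moved in opposite directions. Each is the 250 bases before the start given in the RefSeq table (GRCm38.p6; for Flt1 that start lies inside the annotated gene span), written from 5′ to 3′ on the strand of the gene, and capitals mark ACGTG or GCGTG on either strand, the core that hypoxia inducible factors bind. Vegfb (chr19:6987652-6987901, minus strand), Vegfa (chr17:46032378-46032627, minus strand) and Flt1 (chr5:147726012-147726261, minus strand) were lower in overloaded muscle. Nrp2 (chr1:62703067-62703316, plus strand) and Vegfd (chrX:164373272-164373521, plus strand) were higher in at least 1 overloaded group.
Vegfb: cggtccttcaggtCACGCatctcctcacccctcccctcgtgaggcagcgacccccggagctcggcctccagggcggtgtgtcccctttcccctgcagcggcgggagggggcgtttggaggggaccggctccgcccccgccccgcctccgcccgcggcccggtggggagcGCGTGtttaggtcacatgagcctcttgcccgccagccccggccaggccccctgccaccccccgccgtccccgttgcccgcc
Vegfa: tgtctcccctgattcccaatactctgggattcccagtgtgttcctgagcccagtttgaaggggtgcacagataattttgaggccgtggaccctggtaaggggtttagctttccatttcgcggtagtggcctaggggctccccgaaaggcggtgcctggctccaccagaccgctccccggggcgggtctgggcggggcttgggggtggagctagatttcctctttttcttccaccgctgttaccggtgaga
Flt1: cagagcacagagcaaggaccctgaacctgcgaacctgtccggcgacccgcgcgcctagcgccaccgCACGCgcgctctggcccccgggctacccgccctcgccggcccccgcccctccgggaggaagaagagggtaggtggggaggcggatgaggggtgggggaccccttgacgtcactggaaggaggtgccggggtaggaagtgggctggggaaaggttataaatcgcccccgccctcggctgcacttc
Nrp2: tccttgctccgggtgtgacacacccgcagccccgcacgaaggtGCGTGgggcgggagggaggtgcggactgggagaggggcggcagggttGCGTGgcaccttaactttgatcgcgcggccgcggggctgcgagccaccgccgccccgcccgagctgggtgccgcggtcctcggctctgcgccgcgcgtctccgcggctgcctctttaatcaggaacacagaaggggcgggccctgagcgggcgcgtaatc
Vegfd: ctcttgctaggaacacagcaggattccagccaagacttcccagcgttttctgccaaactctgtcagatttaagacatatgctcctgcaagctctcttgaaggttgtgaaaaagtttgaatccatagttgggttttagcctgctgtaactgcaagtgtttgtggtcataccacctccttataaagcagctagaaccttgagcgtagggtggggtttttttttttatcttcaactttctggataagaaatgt
The core was present 2 times in Vegfb, 1 time in Flt1 and 2 times in Nrp2, with 0 matches in Vegfa and Vegfd, and 38.6% of 32851 promoter windows of this length held it. It shared no base with a GC box (GGGCGG or its reverse complement, in 32.7% of windows), of which Vegfb had 4, Vegfa 2, Flt1 3, Nrp2 5 and Vegfd 0. TNAAGGTCA, the site of oestrogen related receptors, was in none of the 10 members' windows and in 1.14% of all. A TATA box (TATAAA on either strand, in 12.4% of windows) stood in Flt1 and Vegfd alone among the 10. The guanine and cytosine share was 42.4% in Vegfd and 59.2% to 76.4% in the other 4. Members with the core were thus found among those that fell and those that rose. Vegfa had 2 starts listed, and the one farthest upstream was used. Sites of the members outside these windows were not searched.

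The comparison of overload with no overload asked how the VEGF system responded when the muscle had to grow. After 3 d, Vegfb fell 2.26-fold, Flt1 fell 1.57-fold and Vegfa fell 1.56-fold, and no member passed as higher. Nrp2 and Vegfd were 1.45-fold and 1.35-fold higher without passing (adjusted p = 0.0925 and 0.127). Kdr, the main receptor of Vegfa, was 1.54-fold lower and missed the threshold (adjusted p = 0.0580). After 10 d, Vegfb remained 1.84-fold lower and Nrp2 was 1.78-fold higher than without overload. At 3 d 3 of 10 members passed against 17.5% of all genes tested (adjusted p under 0.05), and all 3 were lower, against 8.18% of genes. At 10 d 2 of 10 passed against 5.13%, with 1 higher against 3.9% and 1 lower against 1.23%. The pools did not overlap for 6 of 10 members at 3 d, against 55.8% of genes, and for 7 of 10 at 10 d, against 50.2%, so separation alone was common. The median change of the members was -0.20 at 3 d and -0.15 at 10 d, beside -0.04 over all genes at either time. The tissue was measured in bulk, so fewer cells of a type and less RNA per cell cannot be told apart.

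**Figure D1:**
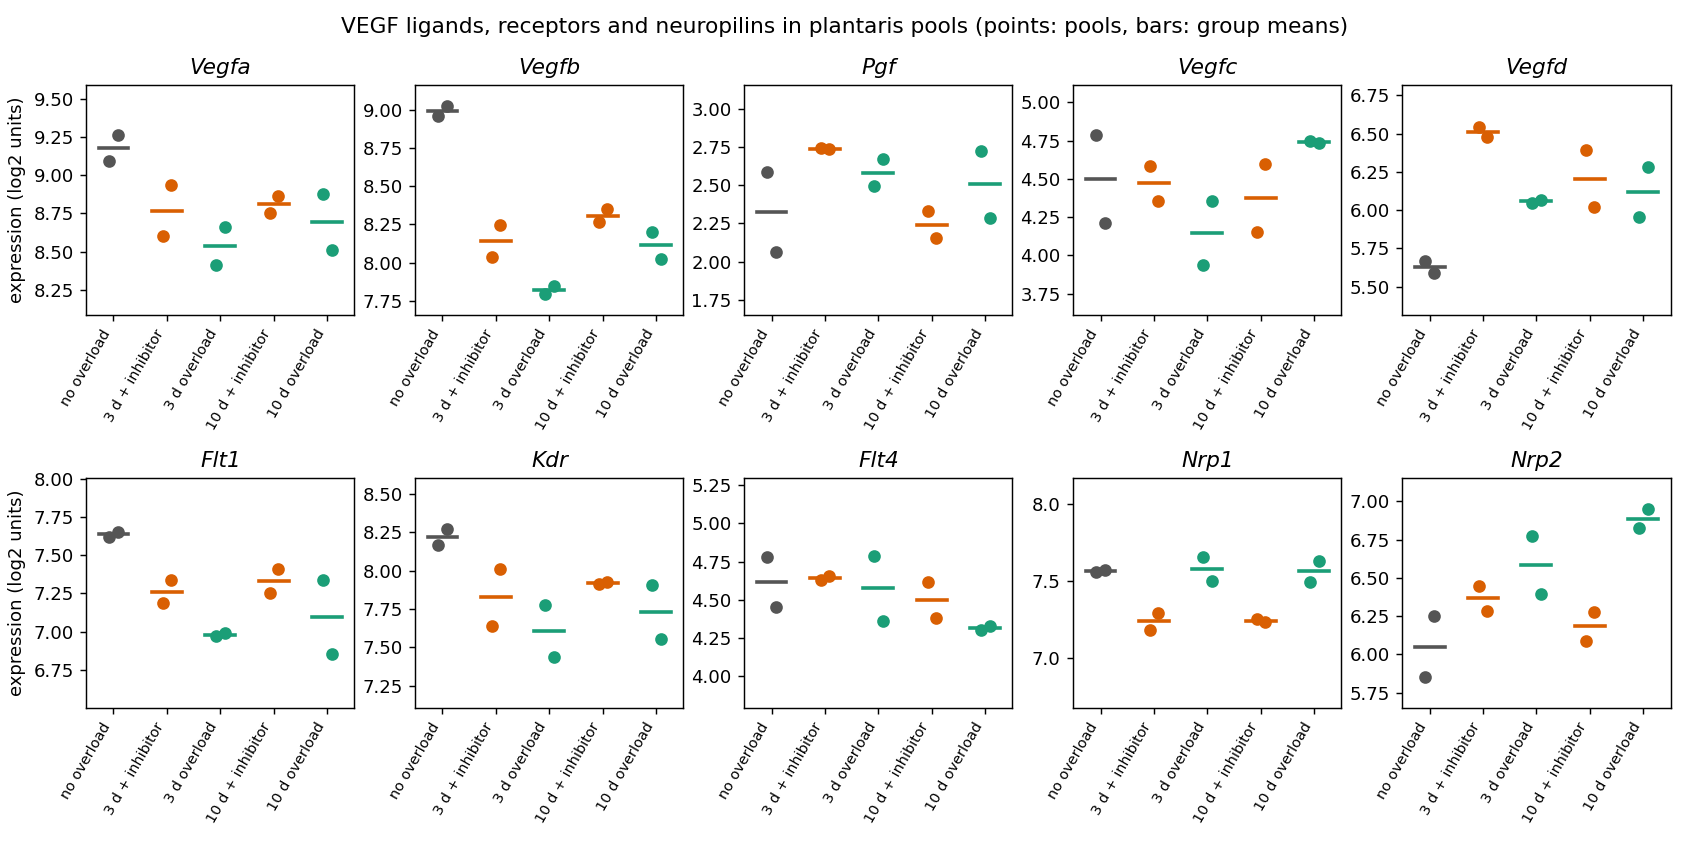
Expression of the 10 VEGF genes in log2 units (y axis, 1.5 units tall in each panel) in the 10 pools (points), with the mean of each group (bars), for no overload (grey), overload with the PDGF inhibitor (orange) and overload alone (green). Vegfa, Vegfb, Flt1 and Kdr are highest in the no-overload pools, Nrp2 is highest at 10 d of overload, and Nrp1 is lowest in the 4 inhibitor pools.

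Vegfb (gene at chr19:6982472-6987651), the ligand of Flt1 linked to fatty acid handling and coronary vessels, changed most of the 10. It stood at 7.80 and 7.84 log2 units in the 3 d overload pools and at 8.96 and 9.03 in the pools without overload. The groups were more than 1 log2 unit apart, while pools within them lay within 0.07. The change was -1.17 ± 0.14 (SE, adjusted p = 9.24e-04). At 10 d the overload pools held 8.20 and 8.02, still below both pools without overload (-0.88 ± 0.14, adjusted p = 0.0117). The 10 d pools were above the 3 d pools by 0.29 ± 0.14, a difference that did not pass (adjusted p = 0.279). The 3 d call was kept whichever array was left out, with -1.15 (adjusted p = 0.0108) without 3 d overload pool 1. The 10 d call was lost without 10 d overload pool 2 (adjusted p = 0.0771) or without no-overload pool 1 (0.0600) or pool 2 (0.0581).

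Vegfa (chr17:46016993-46032377), the main growth factor for blood vessels, had 8.42 and 8.66 log2 units after 3 d of overload, against 9.09 and 9.26 without overload. Every overloaded pool was below every pool without overload, and the change was -0.64 ± 0.18 (adjusted p = 0.0455). At 10 d the overload pools had 8.88 and 8.51, and the change of -0.48 ± 0.18 did not pass (adjusted p = 0.185). The 10 d pools were far apart from each other, with pool 1 nearer to the pools without overload. The 3 d call of Vegfa stood close to the threshold and passed in 4 of 10 fits that left out an array, namely a 3 d inhibitor pool or a 10 d overload pool. It was lost after another quantile normalization (adjusted p = 0.0658) and in the fit of the 4 arrays compared (adjusted p = 0.0702). Without 3 d overload pool 1 the change was -0.52 (adjusted p = 0.223).

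Pgf (chr12:85166637-85177785), a ligand of Flt1 active in inflamed and healing tissue, was dim, at 2.06 to 2.74 log2 units in all 10 pools, a range that includes the array medians. Its change was 0.26 ± 0.21 at 3 d (adjusted p = 0.490) and 0.18 ± 0.21 at 10 d (adjusted p = 0.696), with overlapping pools at either time. The no-overload pools alone differed by 0.52, more than either change.

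Neither lymphatic ligand, Vegfc or Vegfd, passed under overload alone. Vegfd (chrX:164373522-164402650) had 6.05 and 6.07 log2 units in the 3 d overload pools, against 5.67 and 5.59 without overload. The groups did not overlap, and the change of 0.43 ± 0.17 did not pass (adjusted p = 0.127). At 10 d it had 5.96 and 6.28, again above the pools without overload (0.49 ± 0.17, adjusted p = 0.147). Both overloaded groups thus held more Vegfd than no overload in every pool. Vegfc (chr8:54077532-54186454) had 3.94 and 4.35 in the 3 d overload pools, against 4.79 and 4.21 without overload, and these overlapped. Its change was -0.35 ± 0.24 at 3 d (adjusted p = 0.388) and 0.24 ± 0.24 at 10 d (adjusted p = 0.633). Between times, the 10 d pools at 4.75 and 4.73 were above the 3 d pools by 0.59 ± 0.24 (adjusted p = 0.201). No member passed between 10 d and 3 d of overload, against 6.08% of all genes. At an unadjusted p under 0.05, 1 of 10 members, Vegfc, and 4599 of 22180 genes differed there.

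Flt1 (chr5:147561604-147726438), the receptor that binds Vegfa, Vegfb and Pgf, had 6.97 and 6.99 log2 units in the 3 d overload pools, against 7.62 and 7.65 without overload. Both groups were tight and did not overlap, with a change of -0.65 ± 0.17 (adjusted p = 0.0323). At 10 d pool 1 held 7.34 and pool 2 held 6.86, the widest gap of the group among the members, and the change of -0.54 ± 0.17 did not pass (adjusted p = 0.121). With dim genes left out the 10 d change passed (adjusted p = 0.0478), where 19.7% of genes tested did. Without 10 d overload pool 1 the 10 d change was -0.78 and passed (adjusted p = 0.0367). The 3 d call of Flt1 did not survive leaving out any 1 of the 4 arrays compared (adjusted p = 0.109 to 0.130), though the change stayed between -0.67 and -0.64. Without 3 d overload pool 1 it was -0.64 (adjusted p = 0.130).

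Kdr (chr5:75932827-75979072) had 7.77 and 7.43 log2 units in the 3 d overload pools, against 8.17 and 8.27 without overload. The pools did not overlap, and the change was -0.62 ± 0.19. At 10 d it had 7.90 and 7.55 (-0.49 ± 0.19, adjusted p = 0.189). Kdr therefore had a 3 d change of nearly the size of that of Flt1 with a wider spread between pools. It passed at 3 d when dim genes were left out (adjusted p = 0.0228) or each array was set to a common median (0.0207). Flt4 (chr11:49609679-49652739), the lymphatic receptor, had 4.79 and 4.36 in the 3 d overload pools, against 4.78 and 4.45 without overload, and these overlapped (-0.041 ± 0.18, adjusted p = 0.916). At 10 d its pools held 4.30 and 4.33, below both pools without overload (-0.30 ± 0.18, adjusted p = 0.401).

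Of the neuropilins, Nrp2 passed the test at 10 d and Nrp1 did not at either time, and the difference between them was not tested. Nrp2 (chr1:62703317-62818692), which serves lymphatic endothelium and binds Vegfc, had 6.82 and 6.95 log2 units at 10 d of overload, against 5.85 and 6.25 without overload. The groups were clearly apart although the pools without overload differed by 0.39, and the rise was 0.83 ± 0.19 (adjusted p = 0.0423). At 3 d it had 6.77 and 6.40, also above both pools without overload, and the change of 0.53 ± 0.19 did not pass (adjusted p = 0.0925). The 10 d call passed in 2 of 10 fits that left out an array, those without a 3 d overload pool, with changes of 0.64 to 1.03. With each array at a common median, which lowered 10 d overload by 0.17 against no overload, it was 0.67 (adjusted p = 0.0626). Nrp1 (chr8:128358591-128505476), the partner of Kdr in blood endothelium, had 7.66 and 7.50 at 3 d of overload, 7.50 and 7.63 at 10 d and 7.56 and 7.57 without overload. The overloaded pools lay on both sides of those without overload. Its changes were 0.013 ± 0.13 at 3 d and -0.0037 ± 0.13 at 10 d, with 95% intervals of -0.28 to 0.31 and -0.30 to 0.29, and at a common array median the 3 d value was -0.18.

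**Figure D2:**
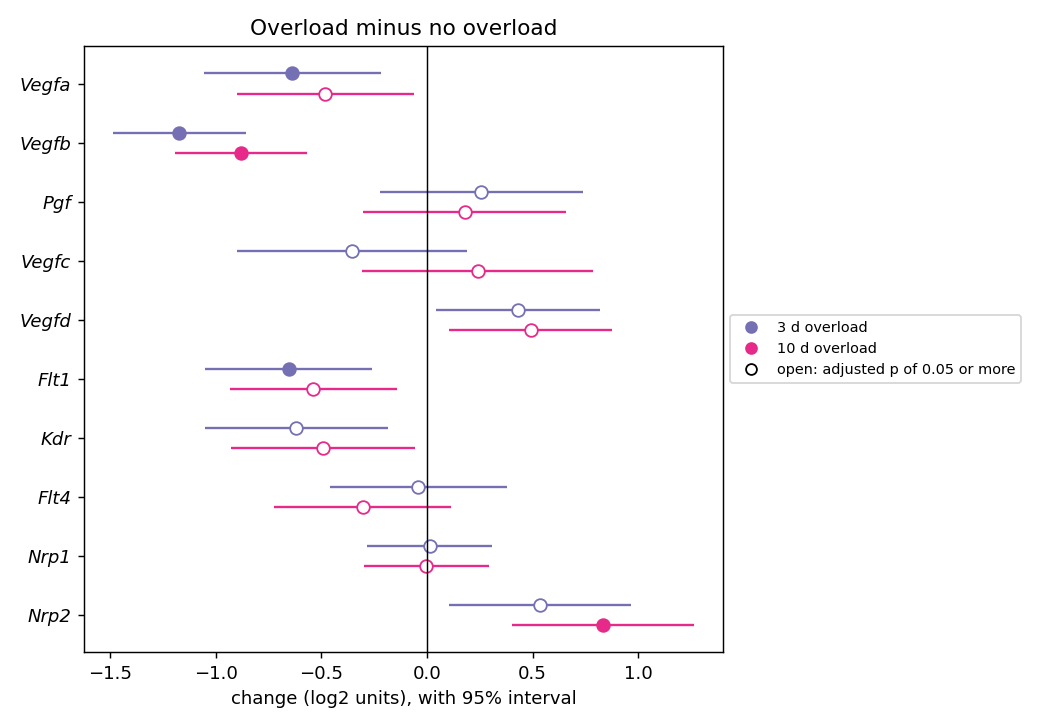
Change of each VEGF gene in overload minus no overload (x axis, log2 units) at 3 d and 10 d, with 95% intervals from the limma fit as bars and filled points for adjusted p under 0.05. Vegfb lies farthest below 0 at either time (-1.17 and -0.88), Nrp2 is the only filled point above 0, at 10 d (0.83), and Nrp1 lies near 0 (0.013 and -0.0037).

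The endothelial receptors were set beside markers of the cells that carry them. Of all genes, 17.5% passed at 3 d of overload, 8.18% as lower. Of 16 blood endothelial markers, Tie1, an endothelial receptor kinase, and Sox18, a transcription factor of vessels, fell at 3 d, by 0.76 ± 0.20 and 0.64 ± 0.15 log2 units, and the other 14 did not pass. Without 3 d overload pool 1, Sox18 was -0.45 (adjusted p = 0.132) and Tie1 -0.95 (adjusted p = 0.0490). The list's median change was -0.02 at 3 d and 0.21 at 10 d, beside -0.65 and -0.54 for Flt1 and -0.62 and -0.49 for Kdr. Cdh5, the junction cadherin of endothelium, had values of 0.06 at 3 d and 0.33 at 10 d, and Pecam1, an endothelial adhesion molecule, of 0.20 and 0.56. None of these 4 values passed. At 3 d the 16 markers lay on both sides of 0, from -0.76 for Tie1 to 0.26 for Vwf. The summed linear level of the 16 markers was 2349 to 2388 at 3 d of overload, 2789 to 2994 at 10 d and 2394 to 2460 without overload. At 3 d the 2 overload pools were thus just below the range without overload, and at 10 d they were above it.

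**Figure D3:**
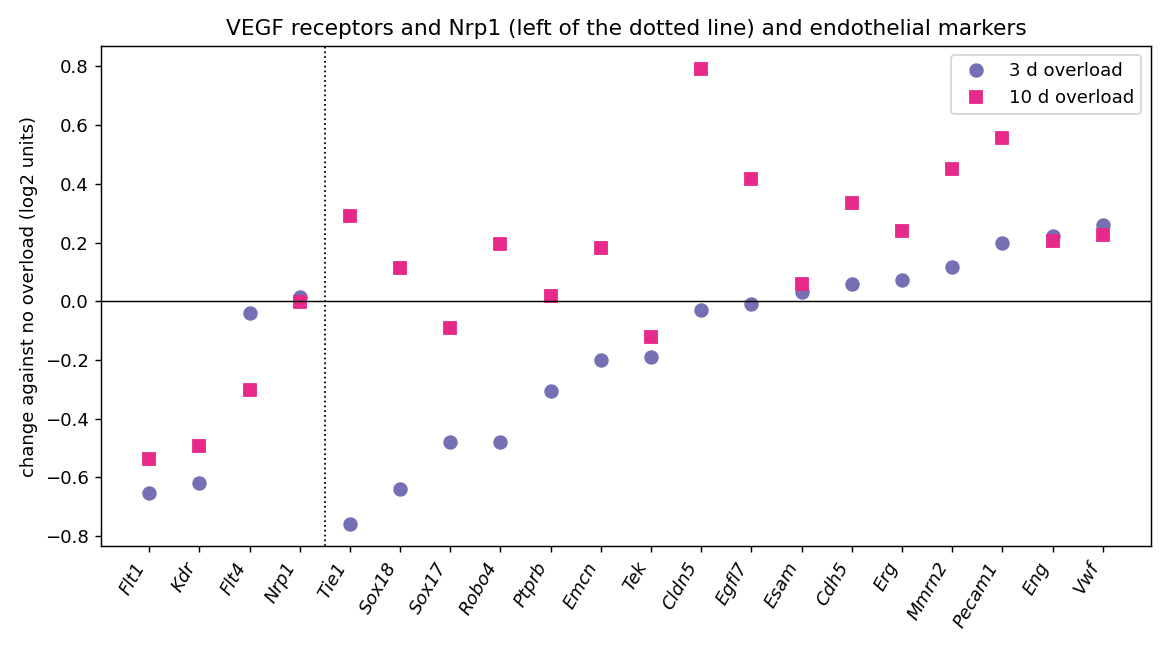
Change against no overload (y axis, log2 units) at 3 d (circles) and 10 d (squares) for Flt1, Kdr, Flt4 and Nrp1, left of the dotted line, and for 16 endothelial markers in the order of their 3 d change. Flt1 and Kdr lie below 0 at either time (-0.65 and -0.54, -0.62 and -0.49), while the markers have a median of -0.02 at 3 d and 0.21 at 10 d.

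Of 5 lymphatic markers, Pdpn, a membrane glycoprotein also found on fibroblasts, and Lyve1, a hyaluronan receptor also found on macrophages, rose at 3 d, by 1.84 and 1.40 log2 units. At 10 d Pdpn was higher by 1.11, and Lyve1 was -0.26 ± 0.13 (adjusted p = 0.311). Prox1, the transcription factor that defines lymphatic endothelium, was 0.47 ± 0.23 at 3 d (adjusted p = 0.220) and 0.80 ± 0.23 at 10 d (adjusted p = 0.0897). Mmrn1, a secreted protein of lymphatic endothelium, was -0.45 ± 0.27 at 3 d and -0.86 ± 0.27 at 10 d (adjusted p = 0.326 and 0.113), and Reln, an extracellular glycoprotein, was -0.27 ± 0.20 and -0.040 ± 0.20 (adjusted p = 0.423 and 0.942). The median of the list was 0.47 at 3 d and -0.040 at 10 d, with members on both sides of 0. Macrophage markers moved with the overload groups, with all 10 of 10 higher at 3 d and at 10 d, and scores of 1.31 to 1.51 at 3 d of overload against -2.02 to -1.81 without overload (a score is the median, over the list, of each gene's level minus its mean). Fibroblast markers also moved, 5 of 8 higher at 3 d (3 without 3 d overload pool 1) and 7 of 8 at 10 d. In the other lists at 3 d, 1 of 8 neutrophil markers and 2 of 5 satellite cell markers were higher, 1 of 9 pericyte markers was higher and 1 lower, and 1 of 8 mature fibre and 1 of 2 Schwann cell markers were lower. At 10 d, 0 of 8 neutrophil and 0 of 8 mature fibre markers passed, 1 of 9 pericyte and 2 of 5 satellite cell markers were higher, and 1 of 2 Schwann cell markers was lower. Beside these marker counts, 17.5% of all genes passed at 3 d and 5.13% at 10 d. The part of these cells in the changes of the VEGF genes was not tested.

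Genes around the VEGFs were counted from lists of known roles. Of all genes, 17.5% passed at 3 d of overload, 8.18% as lower, and 5.13% passed at 10 d. Among 13 genes of oxygen sensing and Vegfa control at 3 d, 4 fell and Hif1a rose. Egln1, the prolyl hydroxylase that marks Hif1a for breakdown, fell by 1.19 ± 0.14 log2 units, the nuclear receptor Esrra by 1.16 ± 0.22, Hif1an, which blocks the activation domain of Hif1a, by 0.74 ± 0.17, and Epas1, a relative of Hif1a found in endothelium, by 0.55 ± 0.15. Hif1a itself rose by 0.91 ± 0.21 (adjusted p = 0.0193), while Ppargc1a, a coactivator that drives Vegfa in muscle, was -0.85 ± 0.29 (adjusted p = 0.0845). Without 3 d overload pool 1, Egln1 alone passed of these 5, and the changes of the other 4 were between -1.14 for Esrra and 0.91 for Hif1a (adjusted p = 0.0505 for Esrra and 0.0914 to 0.154 for the rest). At 10 d Egln1 alone passed (-0.74 ± 0.14). The list's median was -0.37 at 3 d and -0.17 at 10 d, beside -0.04 over all genes.

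Genes that release, process or bind VEGFs passed in the upward direction only. Among all genes, 17.5% passed at 3 d and 5.13% at 10 d, and 53.2% and 76.0% of those were higher. Of 12, Ccn2, a matricellular protein that binds Vegfa, Sparc, a matrix protein that also binds it, and Pcsk5, a proprotein convertase, rose at 3 d by 1.65, 1.34 and 1.22 log2 units, and all 3 passed without 3 d overload pool 1. At 10 d 5 of 12 rose: the gelatinase Mmp2 by 2.01 ± 0.26, Sparc by 1.56, Pcsk5 by 1.10, Adamts3, the protease that matures Vegfc, by 0.94 ± 0.14, and Hspg2 (perlecan), a heparan sulphate proteoglycan of basement membrane, by 0.70 ± 0.14. Adamts3 had 4.08 and 4.22 at 10 d of overload, against 3.21 in both pools without overload. Ccbe1, the cofactor of Adamts3, did not pass at either time (0.15 and 0.33). The list's median was 0.36 at 3 d and 0.65 at 10 d.

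Among 14 other neuropilin ligands and plexins, Plxna2, a semaphorin receptor, rose at 3 d by 1.06 ± 0.17, Sema3b by 0.94 ± 0.16 and Sema3e by 0.70 ± 0.18. Without 3 d overload pool 1, Sema3e did not pass (0.61, adjusted p = 0.151). At 10 d Sema3f, a ligand of Nrp2, was the only member higher (0.81 ± 0.17, adjusted p = 0.0350), and Sema3b was lower at 10 d than at 3 d by 0.90 ± 0.16. The median of that list was 0.31 at 3 d and 0.28 at 10 d. For this list and the next, the share of all genes called was 17.5% at 3 d and 5.13% at 10 d. Genes that VEGF is known to induce in endothelial cells were mixed. Of 14, 7 were higher at 3 d, led by Dusp5 (4.75-fold), Egr3 (4.04-fold), Rcan1 (3.27-fold) and Plaur (3.02-fold), and the nuclear receptor Nr4a1 and the Notch ligand Dll4 fell by 1.34 and 0.90. Of these 9, 7 passed without 3 d overload pool 1, and Egr3 (1.49, adjusted p = 0.110) and Dll4 (-0.83, adjusted p = 0.0880) did not. At 10 d Adamts9 and the peptide hormone Apln were the 2 that passed, higher by 1.09 and 0.94. Many of these genes are induced by other signals in other cells, so their counts are not specific to VEGF.

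The PDGF inhibitor was compared with no inhibitor to see what blocking PDGF signalling did in overloaded muscle. No member passed at 3 d, where 0% of all genes did in the limma fit, or at 10 d, where 0.104% did. At an unadjusted p under 0.05, 3 of 10 members (Vegfb, Vegfd and Nrp1) and 2011 of all genes differed at 3 d, and 2 of 10 (Nrp1 and Nrp2) and 2352 of all genes at 10 d. The pools did not overlap for 6 of 10 members at 3 d, against 40% of genes, and for 6 of 10 at 10 d, against 41.2%. In the fit with a trended, robust variance, 14 genes passed at 3 d, with 0 members. The members nearest to the threshold at 10 d were Nrp2 and Nrp1, both at lower levels with the inhibitor.

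Nrp1 had 7.18 and 7.29 log2 units with the inhibitor at 3 d, against 7.66 and 7.50 in 3 d overload without it (-0.34 ± 0.13, adjusted p = 0.487). At 10 d it had 7.25 and 7.23 with the inhibitor, against 7.50 and 7.63 without (-0.32 ± 0.13, adjusted p = 0.420). All 4 inhibitor pools lay below all 4 overload pools, and below both pools without overload. Such a separation of 4 from 4 pools in the lower direction was found for 2.11% of genes, and among the 10 members for Nrp1 alone. The mean effect over both times was -0.33 ± 0.09 (unadjusted p = 0.00593, adjusted p = 0.177), with 0.289% of all genes called in that comparison. With a trended, robust variance the mean effect of Nrp1 passed (adjusted p = 0.0372), where 2.05% of all genes did.

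Nrp2 had 6.09 and 6.28 with the inhibitor at 10 d, against 6.82 and 6.95 in 10 d overload without it. The pools were far apart, and the difference of -0.70 ± 0.19 had an unadjusted p of 0.00515 and an adjusted p of 0.227. At 3 d it had 6.45 and 6.29 with the inhibitor, against 6.77 and 6.40 without, and these overlapped (-0.22 ± 0.19, adjusted p = 0.770). The inhibitor effects at 10 d and 3 d differed by -0.49 ± 0.27, which did not pass (adjusted p = 0.803). The mean effect was -0.46 ± 0.13 (adjusted p = 0.198). Fibroblast and macrophage scores were also lower with the inhibitor, at either time. At 3 d fibroblast scores were -0.26 to -0.21 with the inhibitor, against 0.27 to 0.37 without, and macrophage scores were 0.63 to 0.98, against 1.31 to 1.51. At 10 d fibroblast scores were -0.03 to 0.00 with the inhibitor, against 0.36 to 1.01 without, and macrophage scores were -0.54 to -0.34, against -0.19 to 0.44. Pools overlapped in none of these 4 comparisons. At either time 0 of 8 and 0 of 10 markers passed, against 0% of all genes at 3 d and 0.104% at 10 d. Endothelial scores at 10 d were also lower with the inhibitor, at 0.02 to 0.04 against 0.13 to 0.26. Pericyte scores there were -0.07 to -0.05, against 0.09 to 0.17. At 3 d both lists scored higher with the inhibitor. Endothelial scores were then -0.07 to 0.01, against -0.13 to -0.10, and pericyte scores 0.0011 to 0.03, against -0.16 to -0.10. The part of these cells in the level of the neuropilins was not tested.

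The members that were low under overload had mean levels slightly nearer to no overload with the inhibitor, without passing. The same overload pools entered both comparisons, so spread between pools can by itself give this direction. A reversal by the inhibitor was not tested. Vegfb had 8.03 and 8.24 with the inhibitor at 3 d, against 7.80 and 7.84 without (0.32 ± 0.14, adjusted p = 0.547), and 8.26 and 8.35 at 10 d, against 8.20 and 8.02 (0.19 ± 0.14, adjusted p = 0.686). Its mean effect was 0.26 ± 0.10 (adjusted p = 0.317). Vegfa differed by 0.23 ± 0.18 at 3 d and 0.11 ± 0.18 at 10 d, Flt1 by 0.28 ± 0.17 and 0.23 ± 0.17, and Kdr by 0.22 ± 0.19 and 0.19 ± 0.19. The 95% intervals at 3 d reached 0.65 for Vegfa, 0.68 for Flt1 and 0.66 for Kdr, so differences up to those sizes were not excluded by the fit. Without 10 d overload pool 2 the 10 d values of Vegfa and Flt1 were -0.071 and -0.0060.

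Vegfd had 6.54 and 6.47 with the inhibitor at 3 d, against 6.05 and 6.07 in 3 d overload without it. Both pools were higher, by 0.45 ± 0.17 on average, and the adjusted p was 0.486. At 10 d the values of 6.39 and 6.02 with the inhibitor overlapped those of 5.96 and 6.28 without it (0.087 ± 0.17, adjusted p = 0.914). Vegfc had 4.58 and 4.36 with the inhibitor at 3 d, against 3.94 and 4.35 without (0.32 ± 0.24, adjusted p = 0.722), and 4.15 and 4.60 at 10 d, against 4.75 and 4.73 (-0.37 ± 0.24, adjusted p = 0.651). Pgf differed by 0.16 ± 0.21 at 3 d and -0.26 ± 0.21 at 10 d, and Flt4 by 0.065 ± 0.18 and 0.18 ± 0.18.

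**Figure D4:**
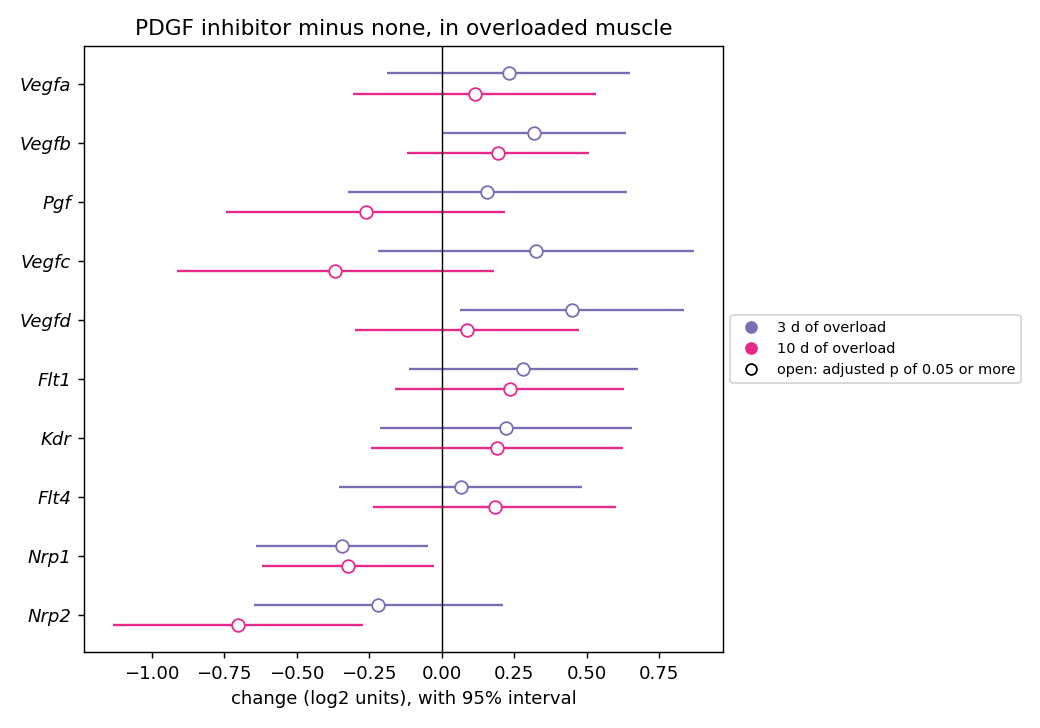
Change of each VEGF gene with the PDGF inhibitor minus none (x axis, log2 units) at 3 d and 10 d of overload, with 95% intervals from the limma fit as bars. All points are open (adjusted p of 0.05 or more), Nrp1 and Nrp2 lie below 0 at either time, and Nrp2 at 10 d lies lowest (-0.70).

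Inhibited muscle was also set against no overload, with the same 2 no-overload pools as before. At 3 d with the inhibitor, 2 of 10 members passed against 14.2% of all genes. Vegfb fell by 0.85 ± 0.14 log2 units (adjusted p = 0.00494), and Vegfd rose 1.84-fold (0.88 ± 0.17, adjusted p = 0.0104), with 6.54 and 6.47 in inhibited pools against 5.67 and 5.59 without overload. The Vegfd call was lost without inhibitor pool 1 at 3 d (adjusted p = 0.0685) or no-overload pool 2 (0.0579). Nrp1 was -0.33 ± 0.13 there (adjusted p = 0.142), and passed at a common array median (-0.46, adjusted p = 0.0491), without dim genes (adjusted p = 0.0420) and with a trended variance (adjusted p = 0.0430). In these settings 14.9%, 37.9% and 18.1% of genes tested passed. They were 3 of the 6 alternatives other than leaving out an array. With single arrays left out, the Nrp1 change ranged from -0.38 to -0.28. At 10 d with the inhibitor, 0 of 10 members passed against 1.56% of all genes, and 3 of 10 members and 3355 of all genes differed at an unadjusted p under 0.05. Vegfb came nearest (-0.69 ± 0.14, adjusted p = 0.0518) and Vegfd was 0.58 ± 0.17 (adjusted p = 0.150). In order of group means, Vegfb was highest without overload, then in 10 d inhibited, 3 d inhibited, 10 d overloaded and 3 d overloaded muscle, with overlapping pools between 3 d inhibited and 10 d overloaded muscle.

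Around the VEGFs, Adamts3 was the only gene of the pathway lists that passed with the inhibitor. It was dim, above 4 log2 units (the cut of the dim filter) only in the 10 d overload pools without the inhibitor. Adamts3 had 2.92 and 2.77 log2 units with the inhibitor at 10 d, against 4.08 and 4.22 in 10 d overload without it. This fall of 1.31 ± 0.14 passed (2.48-fold, adjusted p = 0.0256), and against no overload the inhibited level was -0.37 ± 0.14 (adjusted p = 0.243). It passed in 3 of 10 fits that left out an array (either 3 d overload pool or 10 d overload pool 1), with changes of -1.39 to -1.23, and not in the fit of these 4 arrays alone (adjusted p = 0.243). At 3 d the values of 3.39 and 3.23 with the inhibitor were below those of 3.52 and 3.43 without, by 0.17 ± 0.14 (adjusted p = 0.750). Its list had a median of -0.29 at 10 d, beside 0.01 over all genes, with Hspg2 at -0.59 and Sparc at -0.71, neither past the threshold. With the inhibitor at 10 d, 0 of 13 oxygen sensing genes, 0 of 14 neuropilin ligands and plexins, 0 of 14 VEGF-induced genes and 0 of 16 endothelial markers passed. The share over all genes was 0.104% there, so counts of 0 in short lists are near that share. At 3 d no gene of these lists passed, and neither did any of all 22180 genes. Summed endothelial markers were 2537 to 2611 with the inhibitor at 10 d, against 2789 to 2994 without it. Csf3r, a neutrophil receptor, was the 1 of 8 neutrophil markers that passed at 10 d (1.23 ± 0.13). The median change of that list was 1.81 at 10 d, beside 0.01 over all genes. Neutrophil scores at 10 d were 0.75 to 0.95 with the inhibitor, against -0.97 to -0.94 without it. At 3 d they overlapped, with 0.41 to 0.63 against -0.48 to 1.87.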

How the data were processed

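Expression values on a log2 scale (41345 probe sets, 10 arrays) were deposited by the authors in 1 table. RMA, oligo and limma are named, unversioned, per the submitters' processing notes. RMA corrects background, quantile-normalizes arrays and summarizes probes, which compresses changes of dim genes and hides shifts shared by most transcripts. Probe sets with exactly 1 symbol (23521, against 1814 with several and 16010 not listed) gave 22180 genes, the brightest standing for each. Symbols were updated through gene IDs.

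Groups came from the sample titles. limma 3.58.1 in R 4.3.3 fitted 1 coefficient per group over all 10 arrays (5 residual and 3.58 prior degrees of freedom), with no filter on dim genes. Calls used Benjamini-Hochberg adjusted p under 0.05 over all genes of each of 9 comparisons. Values after ± are standard errors of log2 changes. The steps were tested on simulated data. The members and lists were chosen with earlier results of these data known. The text names all members and up to 4 called genes of largest change per pathway list and comparison. Epas1, Ppargc1a, Ccbe1, Hspg2, Nr4a1, Dll4, some values of Sparc and the marker genes were named after their values were seen. Of the lists, 5 signal carriers, 1 lymphatic and 2 Schwann cell markers were not measured under 1 symbol. Alternatives were another scaling, a dim filter of 4 log2 units, averaged probe sets, a trended variance, fits of the compared groups alone and leaving out each array.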

Additional observations from a re-analysis of the deposited data

Results flagged for a closer look

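Vegfc was the 1 member whose inhibitor effect ran opposite ways at the 2 times with no overlap of pools at either. Pools did not overlap for 40% of all genes at 3 d and 41.2% at 10 d, so separation was common. The share of all genes separated in opposite directions was not counted. At 3 d the inhibitor pools of Vegfc had 4.58 and 4.36 log2 units, against 3.94 and 4.35 in overload alone. At 10 d they had 4.15 and 4.60, against 4.75 and 4.73. The inhibitor effect at 10 d minus that at 3 d was -0.69 ± 0.34 (unadjusted p = 0.0732, limma adjusted p = 0.790), so the test of the difference did not pass. At 3 d the nearest inhibitor and overload pools, 4.36 and 4.35, were almost level. Without overload the pools had 4.79 and 4.21, a gap of 0.57 that was the widest of any member in any group.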

How the results depend on the processing

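The fits rest on 2 pools a group, and changes below about 2-fold often stood near the threshold. The count of members called at 3 d of overload was 3. It was 5 of 9 with dim genes left out (adding Kdr and Nrp2), where 44.2% of all genes passed, 5 with a trended, robust variance, where 21% passed, and 4 at a common median. It was 2 after quantile normalization or in the compared groups alone (losing Vegfa), and 1 to 3 when single arrays were left out. At 10 d it was 2, and 1 at a common array median, 4 with a trended variance (adding Vegfa and Flt1), 0 in the fit of the compared groups alone and 0 to 2 without single arrays. For 3 d of inhibited overload against none it was 2, and 3 (adding Nrp1) at a common median, without dim genes or with a trended variance, and 1 to 2 without single arrays. At a common median, without dim genes and with a trended variance, 14.9%, 37.9% and 18.1% of genes tested passed there. The dim filter kept 9 members. For 10 d of inhibited overload against none it was 0, and 1 (Vegfb) at a common median, without dim genes or with a trended variance. In those settings 1.63%, 9.08% and 4.82% of genes tested passed. For the mean inhibitor effect it was 0, and 1 (Nrp1) with a trended variance, where 2.05% of all genes passed. Leaving out dim genes added Flt1 at 10 d of overload without the inhibitor, where 19.7% of genes tested passed. A common array median lowered 3 d overload by 0.19 log2 units against no overload and moved the calls over all genes to 1567 higher and 3295 lower, against 2066 and 1815 as deposited. At 10 d the split was 678 and 896, against 865 and 273, and for inhibited overload 1315 and 1991 at 3 d and 224 and 137 at 10 d, against 1711 and 1443, and 250 and 95. For the inhibitor at 10 d it was 7 and 10, against 5 and 18, and for its mean effect 21 and 31, against 14 and 50. Over all genes, 1138 passed at 10 d, and 1287 higher with 745 lower without dim genes, 1277 and 838 with a trended variance and 29 and 2 in the compared groups alone. For inhibited overload against none, the compared groups alone gave 1187 and 746 at 3 d and 89 and 13 at 10 d, where 593 and 344 passed without dim genes and 638 and 430 with a trended variance. Between 10 d and 3 d of overload, 1348 passed, and 1211 and 1253, 1172 and 1286, and 61 and 141 in those 3 settings. For the inhibitor at 3 d, 0 passed, and 2 and 4 without dim genes or 9 and 5 with a trended variance. At 10 d 23 passed, and 4 and 10 after quantile normalization, 15 and 61 without dim genes, 53 and 108 with a trended variance and 3 and 0 in the compared groups alone. For the mean effect 64 passed, and 90 and 215 without dim genes or 159 and 296 with a trended variance. With single arrays left out, the genes called were 9.68% to 17.4% at 3 d of overload, 1.17% (without no-overload pool 1) to 5.55% at 10 d and 0.983% (without 3 d overload pool 1) to 4.94% between the times. They were 6.06% to 14.3% and 0.14% to 2.19% for inhibited overload against none at 3 d and 10 d. For the inhibitor 0 to 7 genes passed at 3 d, 0 to 180 at 10 d, the most without 10 d overload pool 1 (9 higher, 171 lower) and 0 without pool 2, and 0 to 341 for the mean effect. The list counts without 3 d overload pool 1 were added after seeing the data. Of the other lists at 3 d, all 10 macrophage markers and 2 lymphatic markers passed there too, and the counts were 2 for neutrophil (1 with all arrays) and 1 each for satellite cell (2), pericyte (2), mature fibre (1) and Schwann cell markers (1).

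Values near 0 changed sign in some settings, with no call on either side. At 3 d of overload Nrp1 was -0.18 at a common median, and at 10 d 0.039 after quantile normalization. When single arrays were left out, Nrp1 ranged from -0.066 to 0.092 at 3 d and -0.072 to 0.065 at 10 d, Flt4 from -0.25 to 0.17 at 3 d, Pgf from -0.0048 to 0.52 at 3 d and -0.082 to 0.44 at 10 d, and Vegfc from -0.047 to 0.53 at 10 d. Inhibitor effects ranged for Flt4 from -0.15 to 0.28 at 3 d, and at 10 d for Vegfd from -0.10 to 0.28, for Vegfa from -0.071 to 0.30 and for Flt1 from -0.0060 to 0.48. No paired analysis was possible because the labels share no pool numbers across groups. The cause of these shifts was not tested.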

Other observations

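Among 19 measured carriers of VEGF receptor signals, Plcg1, the phospholipase that docks on Kdr, fell at 3 d of overload by 0.77 ± 0.16 log2 units (adjusted p = 0.0105) and was higher at 10 d than at 3 d by 0.98 ± 0.16. Map2k1, a kinase of the ERK cascade, and Nfatc1, a calcium-regulated transcription factor, fell at 3 d by 0.45 ± 0.12 and 0.49 ± 0.13, calls that were lost without 3 d overload pool 1 (-0.40 and -0.53, adjusted p = 0.165 and 0.103). Prkcb, a protein kinase C also abundant in immune cells, rose by 1.88 ± 0.25 at 3 d and 1.19 ± 0.25 at 10 d. The list's median change was -0.11 at 3 d and 0.07 at 10 d, beside -0.04 over all genes. Among all genes, 17.5% passed at 3 d of overload and 5.13% at 10 d. No carrier passed with the inhibitor at either time, where 0% of all genes did at 3 d and 0.104% at 10 d.

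Vegfb was the 1 member whose group means spanned at least 1 log2 unit. Over the 10 arrays, the genes of 17428 searched whose centred profiles lay nearest to it were Pla2g12a, a secreted phospholipase, at a root mean square distance of 0.09 log2 units, Mfn1, a mitochondrial fusion protein, at 0.10, and Adcy9, an adenylyl cyclase, at 0.11, beside a median distance of 0.45.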
